A study of Mus musculus with 26 samples.

Results

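The genes described here are 10 steps of glucose uptake and glycolysis: the glucose transporter Slc2a1, the hexokinases Hk1 and Hk2, the phosphofructokinase subunits Pfkl and Pfkp, aldolase A (Aldoa), phosphoglycerate kinase 1 (Pgk1), pyruvate kinase (Pkm), lactate dehydrogenase A (Ldha) and pyruvate dehydrogenase kinase 1 (Pdk1). They were chosen by symbol, and all 10 were among the 24421 genes counted in each of 26 libraries. The libraries were bulk RNA sequencing of stromal cells from mouse hearts. Per the labels, the cells lacked the leukocyte protein CD45 and the endothelial protein CD31, carried a nuclear green fluorescent protein (H2BGFP) expressed from the Pdgfra locus, and were split into SCA-1 positive and SCA-1 negative cells. SCA-1 is the surface protein encoded by Ly6a. The mice were of the line B6.129S4-Pdgfratm11(EGFP)Sor/J, which the labels list under C57BL/6, with the genotype PDGFRa H2BEGFP+, so undamaged and operated groups carried the same reporter. The labels give no age and do not tie libraries to animals.

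The 9 undamaged libraries were 5 SCA-1 positive and 4 negative ones. After LAD ligation, which blocks the left anterior descending artery and infarcts the heart, cells were collected at day 7 (1 positive, 1 negative and 4 libraries whose labels give no gate), day 14 (2 positive, 2 negative) or day 28 (4 positive, 3 negative). In 16 titles the replicate code follows a number, which was 67 in undamaged hearts, 63 or 66 at day 7, 65 at day 14 and 60 at day 28. The other 10 titles (5 undamaged, 2 at day 7, 3 at day 28) have no such number. The labels do not say what the number marks, so the libraries are called numbered and unnumbered below. No number occurs at 2 time points, so among numbered libraries the number and the time cannot be told apart.

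Glycolysis splits glucose into pyruvate in the cytosol. Glucose enters through transporters such as that encoded by Slc2a1, hexokinase traps it by phosphorylation, phosphofructokinase commits it to the pathway, and lactate dehydrogenase turns pyruvate into lactate where mitochondria do not take it up. Pyruvate dehydrogenase kinase limits that uptake by switching off pyruvate dehydrogenase. Many of these genes are textbook targets of the hypoxia-inducible factors, and fibroblasts that become myofibroblasts after injury are known for a high glycolytic flux.

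The libraries held 6792786 to 48836726 reads counted to genes. Levels are CPM, read counts divided by library size after TMM scaling, and 3 counts, the limit that a count of 0 allows, were worth at most 0.424 CPM. Ly6a was 280 to 1284 CPM in libraries labelled positive and 18.8 to 91.9 CPM in those labelled negative. Ptprc (CD45) was at most 2.05 CPM and Pdgfra at least 342 CPM in all 26. The 3 numbered undamaged libraries negative A6, negative B7 and positive B7 had 12325 to 12977 detected genes, against at least 14041 elsewhere, and in the day 28 positive library E2 55.8% of reads lay outside genes. Results that rest on these 4 libraries are also given without them.

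The stretch just before the start site is shown for the 4 members whose levels differed most with the title number, since hypoxia-inducible factors bind a short core in such stretches. Sequences are from RefSeq (GRCm38.p6), 250 bases before the first listed start, 5′ to 3′ on the strand of the gene. Capitals mark the cores ACGTG and GCGTG, searched on both strands, where CACGTG counts on both. The windows are chr4:119108495-119108744 (+) for Slc2a1, chr6:82774455-82774704 (-) for Hk2, chrX:106186850-106187099 (+) for Pgk1 and chr7:46845554-46845803 (+) for Ldha.
Slc2a1: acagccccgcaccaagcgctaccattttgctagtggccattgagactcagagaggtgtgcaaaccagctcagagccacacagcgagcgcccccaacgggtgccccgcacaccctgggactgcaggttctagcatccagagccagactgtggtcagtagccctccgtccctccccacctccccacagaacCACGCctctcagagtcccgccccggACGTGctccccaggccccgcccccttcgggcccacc
Hk2: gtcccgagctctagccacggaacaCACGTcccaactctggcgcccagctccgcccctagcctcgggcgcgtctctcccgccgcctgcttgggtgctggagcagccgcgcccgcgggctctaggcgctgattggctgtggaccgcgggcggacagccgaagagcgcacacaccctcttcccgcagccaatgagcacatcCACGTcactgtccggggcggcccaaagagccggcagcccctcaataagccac
Pgk1: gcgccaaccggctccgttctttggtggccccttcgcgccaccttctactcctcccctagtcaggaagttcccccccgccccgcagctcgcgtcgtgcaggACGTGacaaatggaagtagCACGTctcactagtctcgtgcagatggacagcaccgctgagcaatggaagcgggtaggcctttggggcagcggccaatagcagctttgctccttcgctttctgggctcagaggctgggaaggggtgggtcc
Ldha: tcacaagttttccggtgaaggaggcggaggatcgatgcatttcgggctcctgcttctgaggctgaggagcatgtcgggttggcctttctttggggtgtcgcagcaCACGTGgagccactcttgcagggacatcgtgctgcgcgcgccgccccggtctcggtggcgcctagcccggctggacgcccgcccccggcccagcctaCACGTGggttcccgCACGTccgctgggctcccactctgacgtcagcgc
Slc2a1 has 2 matches in this window, 61 and 36 bases before the start site. Hk2 and Pgk1 have 2 matches each, and Ldha has 5, of which 4 are both strands of its 2 CACGTG motifs. All 10 members had at least 1 match in at least 1 listed window (12 of 16 windows), while 41.5% of 27025 genes and 38.6% of 32851 windows did. A match describes letters and does not show that a factor binds there.

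In every library Aldoa, Ldha and Pkm were the most abundant members per length. Counts were divided by the summed length of the annotated exons (GENCODE M21), and the median over 26 libraries was 150.8 CPM per kb for Aldoa, 84.9 for Ldha and 77.6 for Pkm. Hk2 (12.8), Pgk1 (10.2), Hk1 (10.2), Slc2a1 (9.46), Pfkp (6.68) and Pfkl (5.08) followed, with Pdk1 lowest at 1.76 CPM per kb. Between neighbours in this order the ranges over libraries overlapped for every pair. Hk2 spanned 3.91 to 56.2 CPM per kb and Slc2a1 2.51 to 33.4, while Hk1 spanned only 5.29 to 12.7. Annotated exons of other genes overlap those of Pkm (Gm49759, same strand) and, on the opposite strand, those of Aldoa (Fam57b), Hk1 (Hk1os), Slc2a1 (Gm12868) and Pfkp (Pitrm1), and a further gene model also carries the symbol Aldoa. Because the strand setting of the counting is not known, reads of such partners cannot be told apart. Near-identical processed copies of Pgk1, Ldha, Aldoa and Pkm can take or lend reads as well, so their absolute levels are uncertain.

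**Figure D1:**
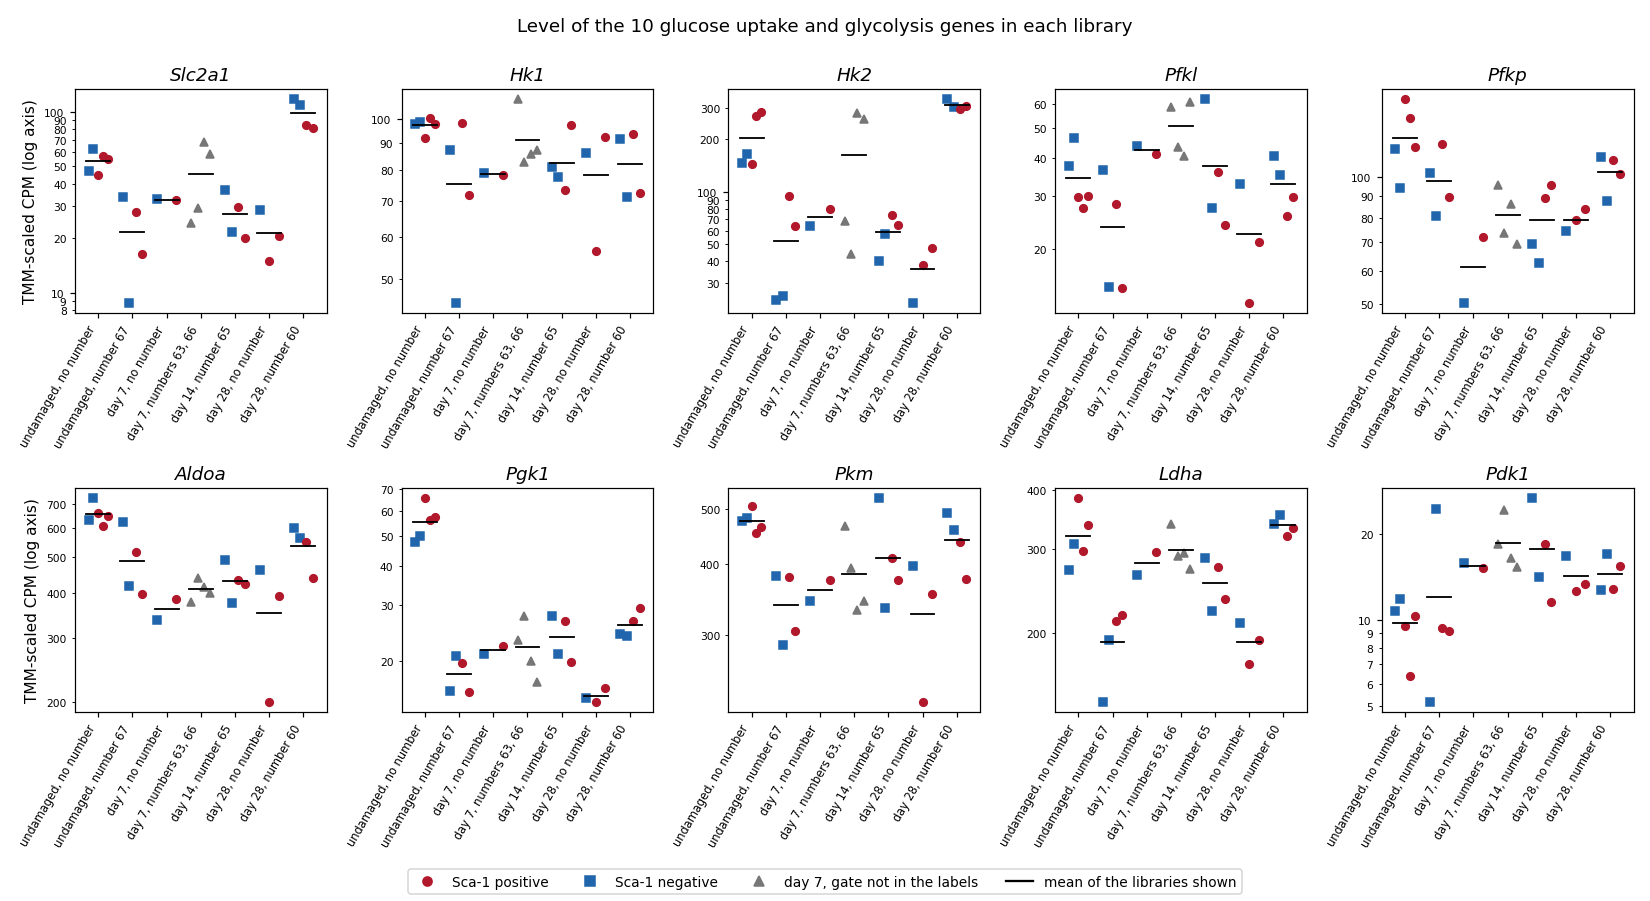
TMM-scaled CPM (log axis) of the 10 genes in each of 26 libraries, by time and title number. Circles are SCA-1 positive, squares SCA-1 negative and triangles day 7 libraries without a gate in the labels, and bars are means of the libraries shown. Hk2 and Slc2a1 are high in unnumbered undamaged and numbered day 28 libraries, and Pgk1 is high only in unnumbered undamaged libraries.

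With all libraries fitted together and a term for the title number, members were called against undamaged hearts at day 7 only. Of the times after ligation, day 7 also had the largest share of all genes called. Pfkl, the liver-type phosphofructokinase subunit, and Pdk1 were higher, while Pfkp, the platelet-type subunit, and Aldoa, which cleaves fructose bisphosphate, were lower. These were 4 of 10 members, where 24.7% of 13392 genes were called (13% higher and 11.7% lower, adjusted p under 0.05, edgeR quasi-likelihood test, Benjamini-Hochberg). The median log2 difference was -0.09 over the 10 members and -0.02 over all genes. Adjusted p was 0.123 for Pgk1 and at least 0.571 for Slc2a1, Hk1, Hk2, Pkm and Ldha.

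Pfkl (ENSMUSG00000020277.10, chr10:77986947-78010083) was 41.1 and 43.6 CPM in the unnumbered day 7 libraries and 58.9, 43.3, 40.5 and 60.9 CPM in the numbered ones. In undamaged hearts its lowest, median and highest values were 14.9, 29.8 and 46.5 CPM. Only the negative undamaged library F3 lay within the day 7 range. The log2 difference was 0.70 ± 0.25 (SE, adjusted p = 0.0444).

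Pdk1 (ENSMUSG00000006494.11, chr2:71873224-71903858) was 15.2 to 24.1 CPM at day 7, with a median of 16.1 CPM. In undamaged hearts 8 of 9 libraries lay at 5.18 to 11.8 CPM, and the negative library B7 had 24.4 CPM. The log2 difference was 0.66 ± 0.24 (adjusted p = 0.0397). Both calls were near the threshold: leaving out 1 library at a time ended the call for Pfkl in 11 of 16 cases (adjusted p up to 0.095) and for Pdk1 in 9 of 16 (up to 0.1). Pdk1 was still called without the 3 undamaged libraries with few detected genes (0.82, adjusted p = 0.00506), and Pfkl was not (0.38, 0.279).

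Pfkp (ENSMUSG00000021196.14, chr13:6579768-6648777) was 50.3, 72.9 and 95.7 CPM (lowest, median, highest) at day 7 and 81.0, 116 and 153 CPM in undamaged hearts. The 2 ranges overlapped, with the day 7 libraries 1A and 4A above the lowest undamaged one. Its log2 difference was -0.62 ± 0.16 (adjusted p = 0.00482), and the call held when any 1 of 16 libraries was left out (adjusted p up to 0.0277). Aldoa (ENSMUSG00000030695.16, chr7:126795234-126800751) was 337, 392 and 439 CPM at day 7 and 397, 626 and 726 CPM in undamaged hearts. The ranges overlapped only through the undamaged B7 pair (397 and 416 CPM). Its log2 difference was -0.59 ± 0.18 (adjusted p = 0.0182), and without the negative day 7 library the adjusted p was 0.0577. With the 3 undamaged libraries of few detected genes left out, Pdk1 (as above), Pfkp (-0.89) and Aldoa (-0.84) were called at day 7. Genes called in that fit were 3584, against 3308 with every library in. The fit kept the 5 unnumbered undamaged libraries and 1 numbered one. Hk2 (-1.62) and Pgk1 (-1.22) were lower in it. These 2 values are descriptions without a test, because their difference by title number was known when the genes were chosen.

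At day 14 and day 28 no member was called against undamaged hearts, where 8.89% and 5.44% of genes were. At an unadjusted p under 0.05 there were 3 and 2 members, against 22.8% and 20.2% of genes. Pfkp at day 14 (-0.56 ± 0.19, adjusted p = 0.0659) was nearest to the threshold. It was called lower there without the undamaged negative B7 (-0.64, adjusted p = 0.028) or the positive B7 (-0.63, 0.0366), and Pdk1 was called higher without the negative B7 (1.00, 0.00654). With the day 7 gates taken from marks in the deposited names, which the labels do not give, Pfkp was called lower at day 14 (-0.56 ± 0.16, adjusted p = 0.0276; 3.46% of genes called lower). In that fit it was also lower at day 7 within negative cells (-0.64 ± 0.19, 0.0235; 7.4% of genes) and missed the threshold within positive cells (-0.59 ± 0.19, 0.0596). Between the times after ligation no member was called either: 0.0224% of genes were between day 14 and day 7, 13% between day 28 and day 7, and 3.14% between day 28 and day 14. The numbers of members at an unadjusted p under 0.05 were 0, 1 and 2, against 8.04%, 27.5% and 17.3% of genes. For Pfkl the difference of day 28 from day 7 was -0.76 with an adjusted p of 0.0538, and 0.0388 without the negative day 28 library B4. With the day 7 gates of the deposited names Pfkl was called lower at day 28 than at day 7 (-0.75, adjusted p = 0.0402). Without the 3 undamaged libraries with few detected genes, Slc2a1 (-1.78), Pfkp (-0.89) and Aldoa (-0.79) were called lower and Pdk1 (0.79) higher at day 14. At day 28 Pfkp (-0.56) and Aldoa (-0.62) were called lower. Genes called in that fit rose too, from 1190 to 1818 at day 14 and from 728 to 1096 at day 28. As descriptions, Hk2 was -3.29 and Pgk1 -1.14 at day 14, and Pgk1 was -1.27 at day 28. All undamaged libraries left there but 1 were unnumbered, while all day 14 libraries were numbered. Fitted estimates were wide for the most variable genes, with an interval of 2 SE either side that ran from -1.31 to 1.64 for Hk2 and from -0.32 to 1.51 for Slc2a1 at day 28. An absent call in the joint fit therefore does not show that their levels were alike.

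The change from undamaged hearts to day 28 ran in opposite directions in numbered and unnumbered libraries. That Hk2 and Pgk1 differ with the title number was known when the genes were chosen, so wherever libraries are split by the number their values are descriptions without a test, and counts are over the other 8 members. Among numbered libraries 2 of the 8, Slc2a1 and Ldha, were called higher at day 28 (6.84% of 13083 genes called higher), and all 8 had positive estimates, with a median of 0.30. Among unnumbered libraries 4 of the 8 were called lower, Slc2a1, Pfkp (-0.66 ± 0.17, adjusted p = 0.0295), Aldoa (-0.92 ± 0.24, 0.0277) and Ldha (6.76% of 13123 genes called lower), and 7 had negative estimates, with a median of -0.64. Over all genes the medians were -0.02 and 0.00. Only Pdk1 had positive estimates in both sets, 0.25 ± 0.36 and 0.53 ± 0.20.

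Both counts rest on few libraries. Without the 3 undamaged libraries with few detected genes, numbered day 28 libraries are set against the positive undamaged A6 alone. That left Slc2a1 at 1.84 and Ldha at 0.69, against 2.17 and 0.79 with every numbered library in. A single undamaged library shows no spread, so no call or absent call is read from that fit. Without the day 28 library E2, 3 of the 8 were called lower among unnumbered libraries, Slc2a1 (-1.12, adjusted p = 0.00524), Aldoa (-0.63, 0.0204) and Ldha (-0.67, 0.0215), while Pfkp (-0.65, 0.0624) was not.

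Slc2a1 (ENSMUSG00000028645.11, chr4:119108711-119137983), the basal glucose transporter of most cells, was 44.5, 57.0, 54.7, 46.8 and 62.2 CPM in the 5 unnumbered undamaged libraries (positive E1, E3 and F3, negative E5 and F3). In the numbered undamaged libraries it was 27.8 and 16.3 CPM (positive A6, B7) and 33.6 and 8.82 CPM (negative A6, B7). At day 28 the order was the other way round, with 14.99, 20.5 and 28.7 CPM in unnumbered E2, F2 and E4 and 84.8, 81.6, 117 and 109 CPM in numbered positive B4 and B6 and negative B4 and B6. Numbered and unnumbered libraries did not overlap at either time. From undamaged to day 28, Slc2a1 rose by 2.17 ± 0.37 on the log2 scale among numbered libraries (adjusted p = 0.00142) and fell by 1.32 ± 0.21 among unnumbered ones (0.00239). The difference between the 2 changes was 3.50 ± 0.49 (adjusted p = 2.59e-05).

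At day 7 Slc2a1 split by the title number itself. The libraries with number 66 had 68.2 and 58.1 CPM, those with number 63 had 24.4 and 29.3 CPM, and the unnumbered pair had 32.3 and 32.7 CPM. Day 14 (number 65) lay at 37.0 and 29.9 CPM in the pair D1 and 21.5 and 20.1 CPM in the pair D9. Among numbered libraries Slc2a1 was higher at day 28 than at day 14 (1.85 ± 0.37, adjusted p = 0.00487; 4.48% of genes called higher) and day 7 (1.12 ± 0.36, 0.0467; 6.97% of genes).

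Hk2 (ENSMUSG00000000628.10, chr6:82725025-82774454), the inducible hexokinase, followed the same libraries with a larger span. It was 144, 269.7 and 283 CPM in the unnumbered undamaged positive libraries and 146 and 164 CPM in the negative ones. The numbered undamaged libraries had 94.6 and 63.5 CPM (positive A6, B7) and 24.3 and 25.6 CPM (negative A6, B7). At day 28 it was 296, 306, 336 and 304 CPM in numbered libraries and 38.3, 47.6 and 23.3 CPM in unnumbered ones. At day 7 the pair numbered 66 had 279 and 258 CPM, the pair numbered 63 had 68.4 and 44.1 CPM, and the unnumbered pair 79.1 and 63.4 CPM. Day 14 spanned 40.5 to 73.8 CPM. No library lay between 94.6 and 144 CPM, so the 26 libraries fall into 11 high and 15 low ones. This split is part of what was known when the genes were chosen.

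Within numbered libraries the fitted log2 difference of Hk2 from undamaged hearts was 2.56 ± 0.51 at day 28 and 1.63 ± 0.50 at day 7, and that of day 28 from day 14 was 2.39 ± 0.51. Within unnumbered libraries the differences from undamaged hearts were -1.49 ± 0.35 at day 7 and -2.49 ± 0.32 at day 28. Hk1 (ENSMUSG00000037012.18, chr10:62268855-62379908), the constitutive hexokinase, was 56.4 to 109 CPM in 25 of 26 libraries and 45.2 CPM in the negative undamaged B7. It was called in none of the joint or separate time comparisons with every library in, and at day 28 the difference between its 2 changes was 0.44 ± 0.26 (adjusted p = 0.269).

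**Figure D2:**
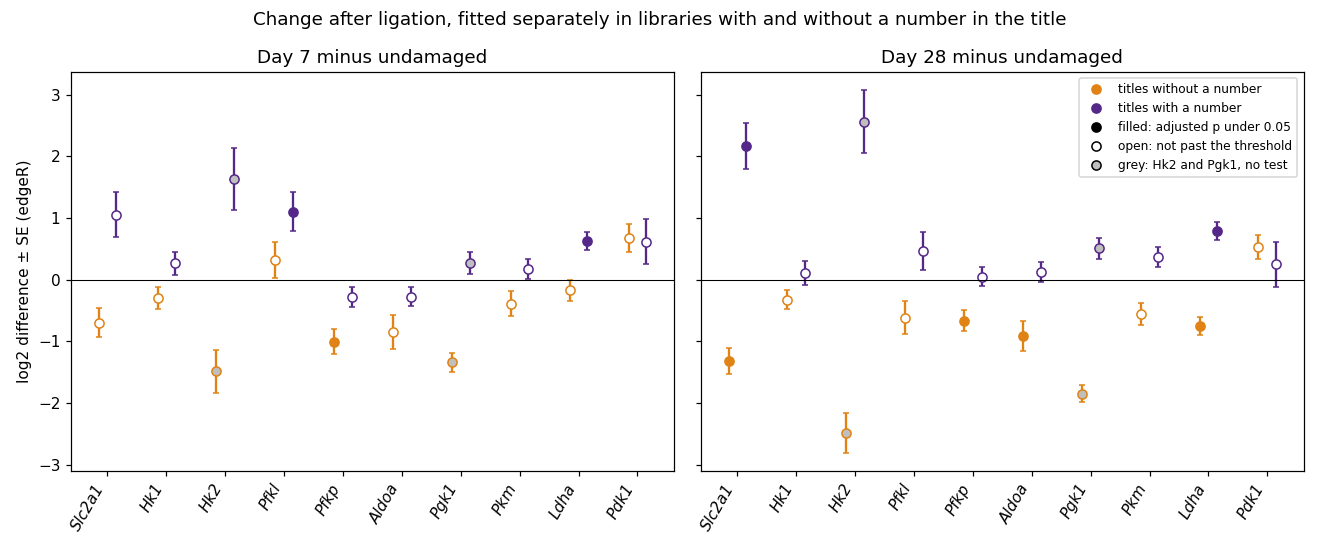
Log2 difference from undamaged hearts (± SE, edgeR) at day 7 and day 28, fitted separately in unnumbered (orange) and numbered (purple) libraries; filled points passed an adjusted p of 0.05, open ones did not, and grey points (Hk2, Pgk1) were not tested. At day 28 the Slc2a1 estimates are 2.17 and -1.32 and the Hk2 estimates 2.56 and -2.49, while the Pdk1 estimates are 0.25 and 0.53.

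Pgk1 (ENSMUSG00000062070.12, chrX:106187100-106203699), the first ATP-forming step, had another pattern. It was 65.6, 55.9, 57.2, 47.6 and 49.9 CPM in the 5 unnumbered undamaged libraries (positive E1, E3, F3, negative E5, F3), and 14.8 to 29.4 CPM in the other 21. The numbered undamaged libraries had 19.7 and 16.0 CPM (positive A6, B7) and 16.1 and 20.7 CPM (negative A6, B7). Numbered day 28 libraries (26.8, 29.4, 24.3 and 23.9 CPM) lay above unnumbered ones (14.8, 16.4 and 15.2 CPM) without overlap. The fitted log2 difference of Pgk1 from undamaged hearts was -1.34 ± 0.16 at day 7 and -1.85 ± 0.14 at day 28 within unnumbered libraries, and 0.50 ± 0.18 at day 28 within numbered ones. Unlike Hk2, Pgk1 was not high in the day 7 libraries numbered 66, with a mean of 18.6 CPM.

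Ldha (ENSMUSG00000063229.15, chr7:46841475-46855627) differed less but without overlap. In undamaged hearts it was 271, 308, 384, 297 and 336 CPM in unnumbered libraries (negative E5, F3, positive E1, E3, F3) and 144, 193, 212 and 219 CPM in numbered ones (negative A6, B7, positive A6, B7). At day 28 it was 172, 193 and 209.9 CPM in unnumbered and 319.9, 333, 339 and 354 CPM in numbered libraries. The change to day 28 was 0.79 ± 0.14 in numbered (adjusted p = 0.00213) and -0.75 ± 0.15 in unnumbered libraries (0.00775), a difference of 1.55 ± 0.20 (1.07e-05). At day 7 Ldha was 265 and 296 CPM in unnumbered and 272 to 339 CPM in numbered libraries, and it was called higher than in undamaged hearts among numbered ones (0.63 ± 0.14, adjusted p = 0.00612).

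Counted at day 7, 2 of the 8 were called higher among numbered libraries (Ldha and Pfkl, the last at 1.10 ± 0.31 with an adjusted p of 0.0201; 10.7% of genes called higher). Among unnumbered libraries 1 of the 8 was lower, Pfkp (-1.01 ± 0.20, adjusted p = 0.00769; 7.37% of genes called lower). Without the 3 undamaged libraries with few detected genes, the positive A6 is the only numbered undamaged library, so no count is given for that fit. The count among unnumbered libraries was 5 without E2, adding Slc2a1 (-0.70), Aldoa (-0.86), Pkm (-0.40) and Hk1 (-0.31, adjusted p = 0.0412). Genes called lower rose as well, from 967 to 1428. Pfkl and Pdk1 had positive day 7 estimates, and Pfkp and Aldoa negative ones, in both sets of libraries. For Pdk1 these were 0.61 ± 0.36 and 0.68 ± 0.22, and for Aldoa -0.28 ± 0.16 and -0.85 ± 0.27, in numbered and unnumbered libraries respectively.

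The difference between numbered and unnumbered changes was then fitted in 1 model over 14052 genes, with Hk2 and Pgk1 again as descriptions. For day 28 against undamaged hearts 5 of the other 8 members were called, each with the larger change in numbered libraries, where 8.8% of genes were called in that direction. Beside Slc2a1 and Ldha these were Aldoa (1.04 ± 0.27, adjusted p = 0.00994), Pkm (0.93 ± 0.24, 0.00955) and Pfkp (0.72 ± 0.24, 0.0441). Pkm (ENSMUSG00000032294.17, chr9:59656368-59679375), the last ATP-forming step, was 454 to 506 CPM in unnumbered and 288 to 382 CPM in numbered undamaged libraries, which did not overlap. At day 28 it was 229 to 397 CPM in unnumbered and 377 to 492 CPM in numbered libraries, which did. For Hk2 the difference was 5.05 ± 0.70 and for Pgk1 2.36 ± 0.23. For day 7 against undamaged hearts 1 of the 8 was called, Ldha (0.83 ± 0.22, adjusted p = 0.0405), where 1.52% of genes were called in that direction. With libraries of the same code treated as correlated (limma-voom), 4 of the 8 were called for day 28, and Pfkp was not (0.71, adjusted p = 0.0566).

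Within single times, 3 of the 8 were lower in numbered than unnumbered undamaged libraries (7.78% of genes called lower): Slc2a1 (-1.31 ± 0.32, adjusted p = 0.00775), Ldha (-0.74 ± 0.13, 0.000837) and Pkm (-0.50 ± 0.16, 0.0364). At day 28, 2 of the 8 were higher in numbered libraries (4.33% of genes called higher), Slc2a1 (2.19 ± 0.38, 0.000597) and Ldha (0.81 ± 0.15, 0.00137), and with correlated codes Aldoa was called there too (0.70, adjusted p = 0.0426, limma-voom). At day 7 none of the 8 was called, by the adjusted p or at an unadjusted p under 0.05 (0.0142% of genes called and 4.47% at an unadjusted p under 0.05). A single term for the number, added equally at all times, gave no called member (0.112% of genes called), none at an unadjusted p under 0.05 (13.6% of genes), and estimates from -0.44 for Pgk1 to 0.47 for Hk2.

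Part of these calls rested on few libraries. Without the 3 undamaged libraries with few detected genes, 1 numbered undamaged library (positive A6) remained. The day 28 difference between changes was then 3.12 for Slc2a1, 1.404 for Ldha, 0.76 for Pkm, 0.95 for Aldoa and 0.43 for Pfkp. Between numbered and unnumbered undamaged libraries Slc2a1 was -0.93. A group of 1 library shows no spread, so no call is read from these values. Leaving out single libraries ended the call for Pfkp in 11 of 16 cases (adjusted p up to 0.0818), for Pkm in undamaged hearts in 7 of 10 (up to 0.121) and for Ldha at day 7 in 9 of 16 (up to 0.298). The summed level of the early response genes, which cells induce within minutes of disturbance, was 33494 to 47929 CPM in unnumbered and 24158 to 27310 CPM in numbered undamaged libraries. At day 28 it was 14381 to 27497 and 18397 to 33108 CPM, which overlapped. In undamaged hearts the 10 cardiomyocyte markers summed to 14.0 to 28.5 CPM in unnumbered and 36.0 to 99.6 CPM in numbered libraries, and the 6 erythroid markers to 7.99 to 35.2 and 0 to 6.56 CPM. The part of these genes in the results was not tested.

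The genes with a level profile most like that of Hk2 over the 26 libraries were Itpkc (a kinase of inositol trisphosphate), Sbno2, Ptgs2 (the inducible cyclooxygenase), Gja1 (connexin 43) and Csrnp1. Likeness was the root mean square difference of centred log2 CPM, which was 0.37, 0.54, 0.55, 0.58 and 0.58 in that order against a median of 1.33 over 12586 genes. Among the members Slc2a1 was nearest to Hk2 at 0.70. Ptgs2 was 739 to 1117 CPM in unnumbered and 163 to 363 CPM in numbered undamaged libraries, 925 and 745 CPM at day 7 in the pair numbered 66, and 1301 to 2789 CPM in numbered day 28 libraries. The genes most like Pgk1 were Vcp, Ptma, Cycs, Morf4l1 and Hnrnpf, at 0.30 to 0.32 against a median of 0.74. All these profiles share the same libraries.

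**Figure D3:**
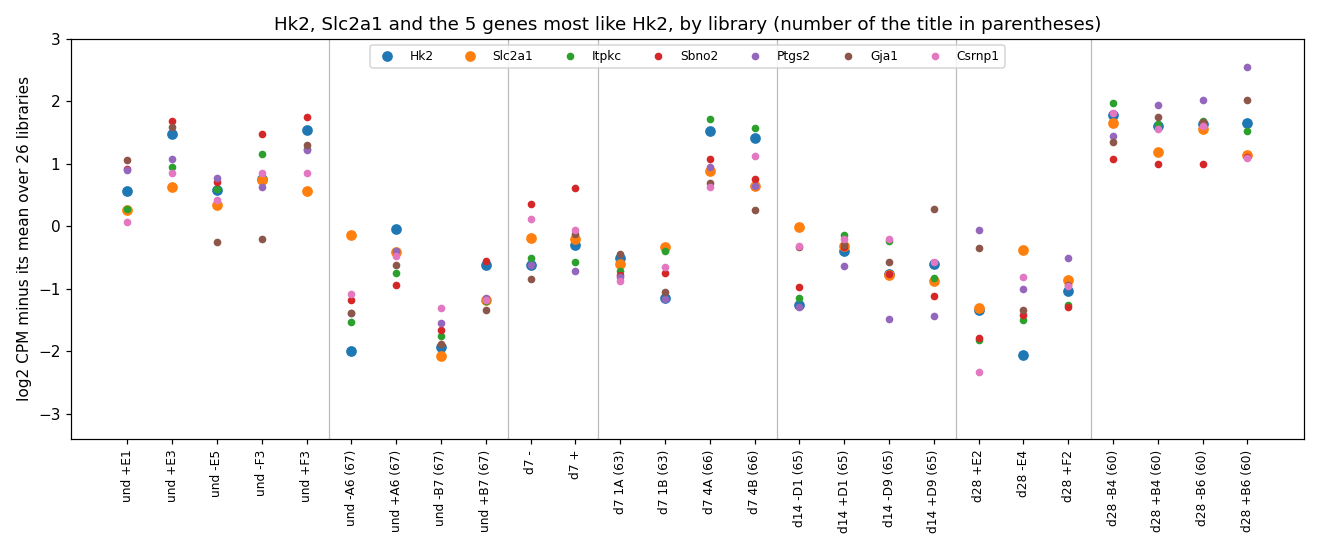
Log2 CPM minus its mean over 26 libraries (vertical axis) for Hk2, Slc2a1 and the 5 genes most like Hk2, in each library (horizontal axis, with the gate as + or - and the title number in parentheses; und, undamaged; d, day). The pair numbered 66 at day 7 and the 4 libraries numbered 60 at day 28 lie above 0 for all 7 genes.

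Between SCA-1 positive and negative cells no member was called in undamaged hearts, at day 14 or at day 28. Of all 13812 genes, 3.51% were called in undamaged hearts, 0.0652% at day 14 and 0.775% at day 28. No member had an unadjusted p under 0.05 in these 3 comparisons, against 16.7%, 2.29% and 14.7% of genes. The change from undamaged hearts also gave no called member within positive cells (1.85% of genes called at day 14 and 1.48% at day 28, with 0 and 1 members at an unadjusted p under 0.05, against 11.4% and 14.8% of genes). The same held within negative cells (5.23% and 1.49%, with 1 and 0 members, against 18.5% and 13.7%). No member passed the test of whether that change differed between gates, where 0% of genes were called at both times and no member had an unadjusted p under 0.05 (1.6% and 5.44% of genes). DESeq2 and limma-voom also called no member in the gate comparisons.

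Libraries of both gates with the same code and time were also compared within the code, in 7 pairs (undamaged F3, A6 and B7, day 14 D1 and D9, day 28 B4 and B6). Pfkl was lower in the positive library in 7 of 7 pairs, with a mean ratio of 0.749 (mean log2 ratio -0.42, SD 0.29). The two-sided exact permutation test over signs gave p = 0.0156, the smallest that 7 pairs allow, and 0.156 after adjustment over the 10 members. Pfkp was higher in the positive library in 6 of 7 pairs (mean log2 ratio 0.27, SD 0.20, exact p = 0.0312, adjusted 0.156). Hk2 was higher in 6 of 7 pairs (0.70, SD 0.77, exact p = 0.0781, adjusted 0.195), with 1.96 in undamaged A6 and between -0.18 and 0.01 at day 28. No member passed after adjustment over these 7 pairs. A single member could not have passed, since the smallest p of 0.0156 becomes 0.156 over 10 members. The absent call therefore does not show that the gates were alike. With 3 day 7 pairs added, 2 of them known only from the deposited names, Pfkp was higher in the positive library in 9 of 10 pairs (0.31, adjusted exact p = 0.0391). Over the same 10 pairs Pfkl was lower in 9 (-0.31, adjusted exact p = 0.104) and higher in the day 7 pair 1A and 1B (58.9 against 43.3 CPM).

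In undamaged hearts Hk2 was called higher in positive cells when edgeR fitted the code as a block (1.33, adjusted p = 0.00344), and not when limma-voom treated codes as correlated (1.32, 0.228) or without the block (0.92, 0.603). The blocked estimate draws on the 3 undamaged codes found in both gates, in which positive cells had 283, 94.6 and 63.5 CPM and negative cells 164, 24.3 and 25.6 CPM. At day 7 each labelled gate has 1 library: Pfkl was 41.1 CPM in the positive and 43.6 CPM in the negative one, and Hk2 79.1 and 63.4 CPM. With the gates of the other 4 day 7 libraries taken from the deposited names, none of the 10 was called between gates at day 7 (0.285% of genes called), and Pfkp was at 0.40 ± 0.20 (adjusted p = 0.934). Of these 4, the libraries marked positive had 296 and 334 CPM of Ly6a and those marked negative 35.9 and 31.7 CPM.

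**Figure D4:**
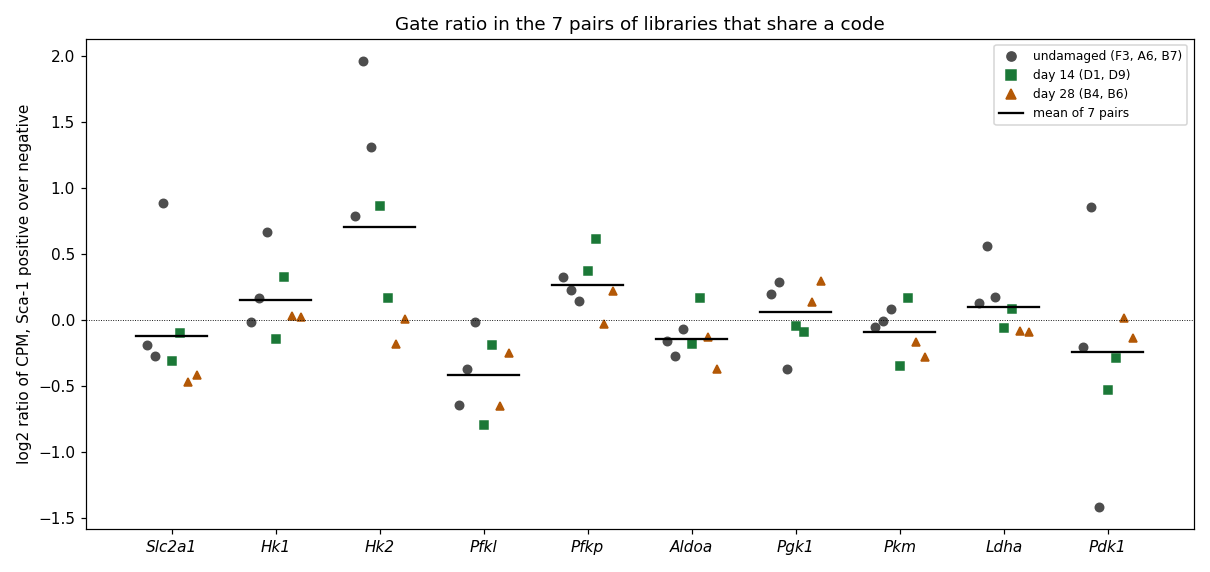
Log2 ratio of CPM, SCA-1 positive over negative (vertical axis), in 7 pairs of libraries that share a code, for each gene. Points are pairs, marked by time, and bars are means of 7 pairs; all Pfkl points lie below 0 (mean -0.42), and Hk2 ranges from -0.18 to 1.96.

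Other genes of the pathway were read from lists chosen with earlier results of these data known. Of 24 other genes of glycolysis and glucose uptake, 19 passed the low-count filter. At day 7, 1 was higher and 1 lower: Pfkfb1, at 0.653 against 0.071 CPM and so near 0 counts, and Bpgm, the 2,3-bisphosphoglycerate mutase (-0.47 ± 0.13, adjusted p = 0.0113). At days 14 and 28 no gene of this list was called. The shares of all 13392 genes called were 24.7%, 8.89% and 5.44% at days 7, 14 and 28. Pfkfb4 at day 7 (-0.68 ± 0.28, adjusted p = 0.0805) and Eno3 at day 14 (0.80 ± 0.33, 0.134) missed the threshold. The list's median log2 difference was -0.21, -0.11 and 0.04 at the 3 times. Gapdh, which feeds Pgk1 in the pathway, was 445 to 595 CPM in the 5 unnumbered undamaged libraries and 95.0 to 208 CPM in the other 21, the same division of libraries as for Pgk1. In the joint fit it was -0.74 ± 0.27 at day 28 (adjusted p = 0.106). Its many processed copies make its level uncertain too.

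Of 14 genes of pyruvate fate and lactate transport, 1 was higher and 4 lower at day 7, 1 was higher at day 14 and none was called at day 28. At these times 24.7%, 8.89% and 5.44% of all genes were called. Pdk3, another pyruvate dehydrogenase kinase, was higher at day 7 (0.75 ± 0.17, adjusted p = 0.0016) and day 14 (0.82 ± 0.20, 0.00796). Mpc1, a subunit of the mitochondrial pyruvate carrier, was lower at day 7 (-0.92 ± 0.18, adjusted p = 0.000485), as was Ldhb (-0.93 ± 0.27, 0.0141). At day 28 Slc16a3, a lactate exporter, was 49.9 to 72.2 CPM in numbered and 3.82 to 16.8 CPM in unnumbered libraries. It was 18.3 ± 4.83 CPM (SD, n = 9) in undamaged hearts, and its change at day 28 was called among numbered libraries (1.93 ± 0.26, adjusted p = 0.000225) and not in the joint fit (0.171). Of 7 pentose phosphate genes, G6pdx (-0.61 ± 0.15, adjusted p = 0.00334) and Taldo1 (-0.33 ± 0.11, 0.0213) were lower at day 7, and none was called at day 14 or day 28. Of all genes, 11.7% were called lower at day 7.

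Of 18 other hypoxia-responsive genes, 17 were tested. At day 7, 3 were higher and 2 lower, at day 14, 2 and 3, and at day 28, 3 and 0. Of all genes, 24.7%, 8.89% and 5.44% were called in either direction at these times. Hif1a, which encodes the oxygen-regulated subunit of a hypoxia-inducible factor, was 58.1 to 95.2 CPM in all 9 undamaged and 102 to 276 CPM in all 17 operated hearts' libraries, without overlap. Its log2 differences were 1.55 ± 0.18, 1.17 ± 0.21 and 1.08 ± 0.17 at days 7, 14 and 28 (adjusted p = 4.25e-07, 0.000632 and 0.000185). At day 28 Hif1a was 102 to 239 CPM in numbered and 127 to 170 CPM in unnumbered libraries, which overlapped, unlike Hk2 and Slc2a1. Car12, a carbonic anhydrase, was called higher at all 3 times from 0.0341 CPM in undamaged hearts to 1.91, 2.12 and 0.749 CPM, levels near the counting floor. Adm, the adrenomedullin precursor, was lower at day 7 (-2.02 ± 0.31, adjusted p = 2.42e-05), Epas1 was lower at day 14 (-0.88 ± 0.19, 0.00274) and Mxi1 was higher at day 28 (0.54 ± 0.10, 0.00201).

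Markers of other cell types moved with time as well. The 10 endothelial markers summed to 238 to 500.0 CPM in undamaged hearts and 130.2 to 205 CPM at day 7, and the 10 proliferation markers to 0 to 20.8 and 35.2 to 91.8 CPM. The 10 macrophage markers summed to 11.1 to 38.0 CPM in undamaged hearts and 31.3 to 61.6 CPM at day 7, the 10 mural markers to 136 to 587 and 228 to 732 CPM, and the 9 fibroblast markers to 32436 to 40649 and 85272 to 117066 CPM. Of the endothelial markers at most 1 was at 0 in a library at these times, and of the macrophage markers up to 5 were at 0 in undamaged hearts. Their part in the day 7 differences was not tested. In bulk libraries a change in the make-up of the isolated cells and a change of RNA within each cell cannot be told apart.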

How the data were processed

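The authors deposited raw counts, with 1 whole number of reads for each gene and library, and 2 further entries that name no gene and were left out of totals. Per the submitters' processing notes, bcl2fastq, TopHat, Bowtie2, STAR and Cufflinks and the build mm10 were used. The counting program, its strand setting and its annotation are not given in the sources used here. Per the labels' protocols, RNA went into a stranded mRNA kit. The counts carry no molecular identifiers, so floors cover counting error only. Groups came from the labels, and p-values measure the spread between these libraries, which may be technical.

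TMM scaling, low-count filtering and two-sided quasi-likelihood tests were done in edgeR 4.0.16 under R 4.3.3. A gene was called where its p, adjusted by Benjamini-Hochberg across the whole table, was under 0.05. Time was fitted on 26 libraries with a term for a number in the title, and gates on 20 libraries. All 10 genes passed both filters. The gates of 4 day 7 libraries are marked in the deposited names and not in the labels, and were used in alternatives only. Within a time point, libraries that share a code deviated from their group means together (r = 0.184 to 0.412 over 13812 genes in 7 pairs), which comes from the data and not from the labels. In undamaged hearts and at day 28 these means pooled numbered and unnumbered libraries, which alone can give such an r. Pairs of unlike code were not compared, and the day 14 pairs D1 and D9 give the same r by construction. Whether a code marks a shared source was therefore not tested. Codes served as pairs in the gate comparisons and as a block in alternatives, while the time and number fits took the libraries of a code as separate. DESeq2 1.42.0 and limma 3.58.1 served as alternatives. The members, the lists and the separate fits by title number were chosen with earlier results of these data known. Named genes outside the members were the 3 with the smallest p per list and time, and the 5 most like Hk2 and Pgk1. On simulated counts the time fit recovered 60% of 2-fold and 79% of 4-fold changes at day 7 (13238 genes), and the gate fit at day 28 recovered 28% and 71% (13583 genes). The simulated libraries were drawn independently, with no effect of the title number and no correlation within a code. Recovery in the real libraries can therefore differ.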

Additional observations from a re-analysis of the deposited data

Results flagged for a closer look

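Pfkl was far lower in 1 undamaged SCA-1 positive library than in the others: 14.9 CPM in B7, against 27.2 to 29.8 CPM in the other 4. It was the only one of 40 combinations of gene and group with such a gap. Chance gives about 1 in 20, so 1 of 40 is no more than chance gives. This group also pools numbered and unnumbered libraries. The negative library with the same code had 15.01 CPM, and both are among the 3 undamaged libraries with few detected genes.

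The change from undamaged hearts to day 28 differed between numbered and unnumbered libraries by a test of the difference itself, on the log2 scale, for Slc2a1 (3.50), Ldha (1.55), Aldoa (1.04), Pkm (0.93) and Pfkp (0.72). The change to day 7 differed for Ldha (0.83). Title number and time cannot be told apart among numbered libraries.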

How the results depend on the processing

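Counts are members called. A count without the share of all genes beside it only shows how far the count moved, and is no result about the members. Leaving out 1 library at a time gave 1 to 4 at day 7, 0 to 2 at day 14 and 0 to 1 at day 28 against undamaged hearts, and 0 to 1 between day 28 and day 7. It gave 2 to 4 between numbered and unnumbered libraries at day 28, 2 to 4 in undamaged hearts, 4 to 6 for the day 28 and 0 to 3 for the day 7 difference between changes. Time counts within numbered or unnumbered libraries leave out Hk2 and Pgk1. In numbered libraries alone 2 were called at day 7 and 2 at day 28 against undamaged. There were 1 between day 28 and day 7, 1 between day 28 and day 14 and 2 for negative cells at day 28. For the gate in undamaged hearts no count is given there, because it rested on Hk2 alone. Hk2 values are descriptions without a test wherever libraries are split by the number. By limma-voom with and without correlated codes, numbered libraries gave 2 at day 28 and 1 for each of the 2 later comparisons, and at day 7 2 with and 3 without. Unnumbered libraries alone gave 1 at day 7 and 4 at day 28, and without E2 3 at day 28 and 5 at day 7. The number was called for 3 within undamaged hearts alone and 2 within day 28 alone. Some called estimates had the opposite sign to the joint fit, where none of them was called. Slc2a1 at day 7 was 1.12 in numbered libraries by limma-voom, 1.05 there by edgeR and -0.05 jointly. At day 28 Slc2a1 (-1.32) and Ldha (-0.75) in unnumbered libraries stood against 0.60 and 0.07 jointly (without E2 -1.12 and -0.67). Hk1 at day 7 was -0.31 without E2 and 0.02 jointly. For the number, Slc2a1 in undamaged hearts (-1.26) and Ldha at day 28 (0.80) stood against single terms of 0.24 and -0.03. The cause was not tested.

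DESeq2 and limma-voom each called 1 at day 14 against undamaged, where genes called rose from 1190 to 1689 and 1744. DESeq2, DESeq2 size factors and the day 7 gates of the deposited names each called 1 between day 28 and day 7 (Pfkl). Genes called there were 2164, 1718 and 2012, against 1736 in the main fit. The day 7 gates of the deposited names also called Pfkp at day 14 (-0.56). The day 7 difference between changes had 0 without the filter and 2 by DESeq2. The joint time fit was repeated without the 3 undamaged libraries with few genes, with Hk2 and Pgk1 as descriptions. Genes called in that fit rose from 1190 to 1818 at day 14 and from 728 to 1096 at day 28. They rose from 1736 to 2808 between day 28 and day 7, and from 420 to 1042 between day 28 and day 14. Without the 3 undamaged libraries with few genes, 6 were called at day 14, 3 at day 28, 1 between day 28 and day 7, 2 between day 28 and day 14, 1 and 1 in positive cells at days 14 and 28, 2 in negative cells at day 14, 0 by number in undamaged hearts, and 2 and 0 for the day 28 and day 7 differences between changes. In numbered libraries without these 3, counts were 0 at day 7, 2 between day 28 and day 7 and 2 between day 28 and day 14. The replicate block (edgeR) gave 1 for the gate in undamaged hearts and changed no other gate count. Correlated codes (limma-voom) ended the call of Pfkp for the day 28 difference between changes (0.71) and added Aldoa by number at day 28 (0.70). They left the joint counts of members as they were, while the genes called at day 28 were 383 against 728. Adding 3 day 7 pairs to the 7 gave 1 (Pfkp). The alternatives by unnumbered libraries, by differences between changes, without the 3 libraries, by pairs and by correlated codes within numbered libraries or by number were chosen after seeing the data.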
